A study of Mus musculus with 20 samples.

Results

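The comparison described here is oocyte maturation in wild-type mice of the Erk experiment: 1 RNA-seq library labelled MII, the mature egg held at the second meiotic metaphase, against 1 library labelled GV, the immature oocyte that still has its germinal vesicle. These are 2 of the 20 libraries of the series. Genes were compared when they reached 5 FPKM (fragments scaled by transcript length and by the mapped total) in either library, which holds for 7923 of the 23309 gene symbols in the files. Per the labels, oocytes came from ICR females 21 to 23 days old after injection of PMSG/hCG, and 60 oocytes were pooled per library. Both groups are labelled wild type, and no transgene, Cre or further allele is given for them. Beside them stand 2 libraries labelled Erk-/- (GV and MII, 1 each, with no allele or Cre named in the sources used here) and 4 wild-type libraries of the Btg4 experiment (GV and MII, 2 each).

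A grown GV oocyte makes almost no new RNA. From the resumption of meiosis until the embryonic genome becomes active, protein output is set by translating, storing and degrading mRNAs that were made during growth. Many stored mRNAs carry cytoplasmic polyadenylation elements near the 3' end. CPEB proteins bind these elements, and the mRNAs gain long poly(A) tails when they are recruited, while others lose their tails through the CCR4-NOT deadenylase. The Mos, MEK and ERK kinase cascade is active during maturation and holds the egg at MII.

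With 1 library per stage there is no replicate check, so changes are given as descriptions with no test. A change is the log2 difference of FPKM + 1, MII minus GV, which understates the change of low genes, and a gene is counted as lower or higher when it is past 2-fold. The deposited intervals had a median width to either side of 9.96% at GV and 9.79% at MII in genes of 5 FPKM or more. They cover only counting error and the error of assigning fragments to genes, and are printed below centred on the FPKM. None of the genes past 2-fold had overlapping intervals, although a value listed at 0 has an interval of no width. A guide to replicate spread comes from the Btg4 experiment, where the 2 wild-type libraries of a stage differed by 2-fold or more in 46 of 5094 of these genes at GV (0.903%) and in 213 of 5224 at MII (4.08%). The labels give a purification of mRNA ahead of the libraries without its method. Where that step uses the poly(A) tail, a longer tail and more mRNA cannot be told apart. FPKM is relative to each library's total, so a change in total mRNA per oocyte, or in the number of oocytes recovered, is not seen.

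The libraries held an estimated 7690000 (GV) and 8880000 (MII) fragments, and 7166 and 4742 symbols reached 5 FPKM. All 15 defining oocyte markers were detected at both stages. The 7 red blood cell markers in the files were listed at 0, and 19 of 24 granulosa and cumulus markers were listed at 0 in each library. The summed granulosa list was 115 FPKM at GV and 352 at MII, most of it Serpine2 (86.2 and 327), and its part in the results was not tested. A value listed at 0 can be a failed estimate: of 1104 compared genes listed at 0 at MII, 229 had 5 FPKM or more in both wild-type MII libraries of the Btg4 experiment, and of 231 listed at 0 at GV, 92 had 5 or more in both of its wild-type GV libraries.

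More genes were lower than higher at MII. Of the 7923 genes, 4273 were lower (53.9%), 1716 were higher (21.7%) and 1934 lay within 2-fold. The median change was -1.29, and the 10th and 90th percentiles were -4.32 and 2.07. Past 4-fold there were 3251 lower and 835 higher genes. Genes just inside the threshold for comparison, with a higher value of 5 to 6 FPKM, numbered 371 with a median of -1.18, and 429 genes just outside, at 4 to 5 FPKM, had a median of -1.30. This balance rests on the scaling: after quantile normalization of the 2 libraries the median became -0.24, with 3067 genes lower and 2518 higher. Median-of-ratios scaling moved it only to -1.24. Gene groups are therefore read below against all genes compared, with their median of -1.29 and their shares of 53.9% lower and 21.7% higher.

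**Figure D1:**
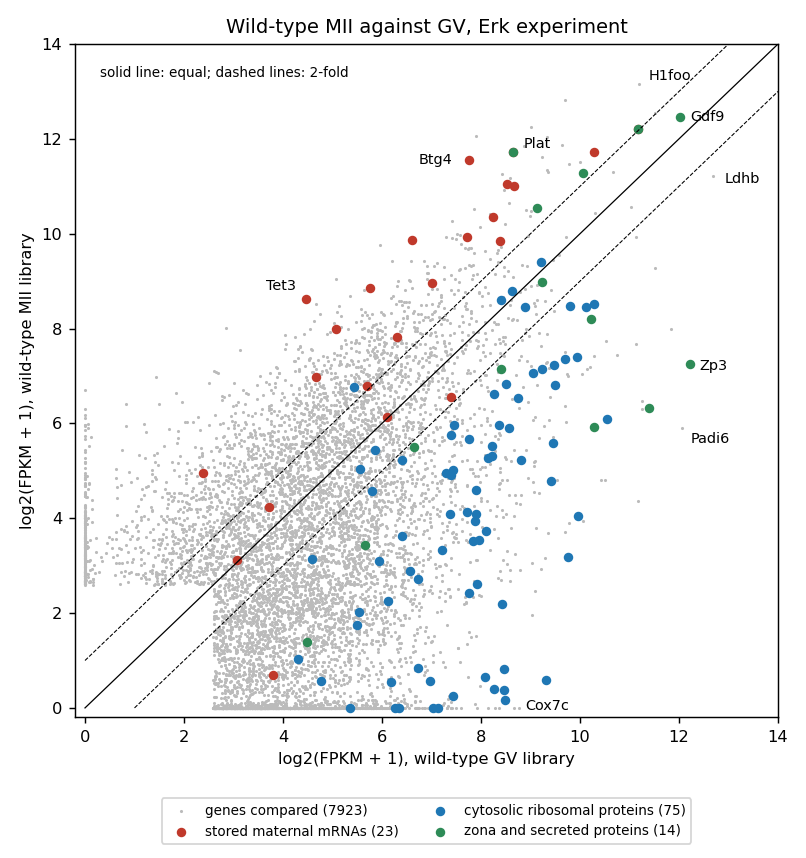
Each point is 1 gene, with log2(FPKM + 1) in the wild-type GV library on the x axis and in the wild-type MII library on the y axis, with the line of equality and dashed lines at 2-fold. Most stored maternal mRNAs lie above the upper dashed line and most ribosomal protein genes below the lower one, and a row of genes is listed at 0 at MII (Plat and Oosp1, which are in the stored and the secreted list, are drawn as secreted).

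The most abundant mRNAs differed between the stages. Of 858 genes at 100 FPKM or more in the GV library, 513 were lower and 115 higher at MII, and 122 ended below 5 FPKM. Of 758 genes at 100 FPKM or more at MII, 458 were higher than at GV and 56 lower. Each set was chosen by its high value in 1 of the libraries compared, which favours these directions, so the counts are a description. The 100 most abundant genes held 26.3% of summed FPKM at GV and 39.1% at MII.

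The 5 most abundant mRNAs at GV were Ldhb, Zp3, Padi6, Gdf9 and Ubb. Ldhb, a lactate dehydrogenase subunit, went from 6619 to 2389 FPKM. Gdf9, a growth factor the oocyte secretes, went from 4139 to 5635 and stayed within 2-fold. Ubb, a polyubiquitin gene, went from 3654 to 252. Apart from Gdf9, each of the 5 was lower at MII.

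At MII the leading 5 were H1foo, Bcl2l10, Zbed3, Gdf9 and AU022751. H1foo, the oocyte linker histone, was at 2353 FPKM at GV and 9139 at MII. Bcl2l10, a BCL2 family member of the oocyte, was at 826 and then 7221 FPKM. Zbed3 was at 2938 and 5963. AU022751 was at 516 and 4853. H1foo, Bcl2l10 and AU022751 were past 2-fold under each scaling tried, and Zbed3, with a change of 1.02, was not past it after quantile normalization (0.41).

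The list with the highest median was that of 23 maternal mRNAs known to be stored at GV and recruited in maturation. It was chosen with earlier results of these data known, so its counts and median are a description. Of these, 18 were higher, 1 was lower and 4 were within 2-fold, with a median of 2.11 beside -1.29 for all genes compared. The list took 1.44% of summed FPKM at GV and 6.25% at MII. Its median was 2.06 after quantile normalization and 1.96 after a correction for transcript length.

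Btg4 encodes the adaptor that brings the CCR4-NOT deadenylase to maternal mRNAs. It was at 216 FPKM in the GV library (interval 205 to 227) and at 2987 at MII (2945 to 3030), 13.8-fold higher. Plat, the secreted tissue plasminogen activator and a classic stored mRNA, was at 400 and then 3374 FPKM, 8.42-fold higher. For both genes the intervals of the stages lie far apart.

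Mos, the kinase that starts the ERK cascade in the oocyte, was at 332 FPKM at GV and 919 at MII, a change of 1.46. Ccnb1, cyclin B1 of the M-phase kinase, was at 208 and 973 (2.22). Wee2, the oocyte kinase that restrains Cdk1, was at 128 and 500 (1.96). Ccnb1 and Wee2, which promote and restrain M phase, were both higher.

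The checkpoint kinase gene Bub1b was at 301 and 1305 FPKM. Slbp, which binds histone mRNA stem-loops, was at 365 and 2115, and Orc6, a subunit of the replication origin complex, at 32.5 and 252. Obox5, an oocyte homeobox gene, was at 406 and 2054. Dcp1a, an activator of decapping, was at 96.0 and 938, and Cnot7, a catalytic deadenylase of CCR4-NOT, at 53.4 and 459. Each of these 6 was more than 4-fold higher at MII.

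Tet3, the dioxygenase that oxidizes 5-methylcytosine in the zygote, went from 21.1 to 395 FPKM (4.16), the largest change of the list as deposited. After the length correction it was 3.31, below the 4.37 of Btg4 and 3.48 of Orc6. Spin1 (1242 and 3369 FPKM) and Oosp1 (2299 and 4760) were already abundant at GV, and their changes of 1.44 and 1.05 fell below 2-fold after quantile normalization (0.76 and 0.50). Il7 (4.22 and 29.9), Hprt (24.2 and 125), Cnot6l (77.9 and 226) and Tpx2 (51.0 and 109) were higher too, the last 2 no longer past 2-fold after the length correction (0.56 and 0.61). Ccnb2 (67.2 and 68.9), Kif11 (12.1 and 17.8), Dcp2 (7.42 and 7.66) and Aurka (167 and 93.4) were within 2-fold. Cdc6, a replication licensing factor, was the member that was lower, at 12.9 FPKM and then 0.627.

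**Figure D2:**
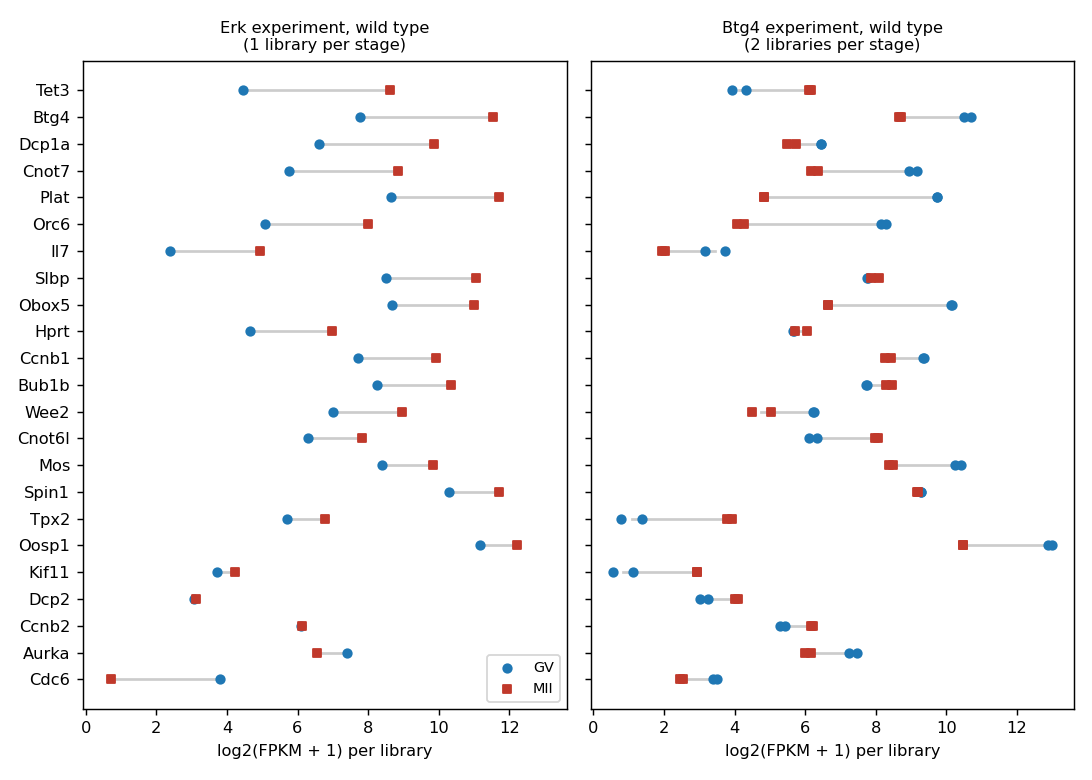
Rows are the 23 stored maternal mRNAs, ordered by their change in the Erk experiment, and the x axis is log2(FPKM + 1) in each wild-type library, with circles for GV and squares for MII. In the left panel 18 genes have MII at least 2-fold to the right of GV, while in the right panel, with 2 libraries per stage, Btg4, Plat, Orc6 and Obox5 have both MII squares to the left of both GV circles.

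The 3' ends of 10 of the 22 stored mRNAs with a long enough UTR hold letters that CPEB proteins are known to bind. Such letters were in 21.2% of all compared genes with a long enough UTR. The list holds mRNAs known to be recruited, so its count is a description. Sites were read from the last 100 bases of the 3' UTR of 1 transcript per symbol in the GENCODE M21 annotation (the APPRIS principal coding transcript, the longest where several qualified). Each is printed as 30 bases, 5' to 3', with the element TTTTAT or TTTTAAT in capitals. The first 7 are shown because they belong to genes with large increases, of which Bcl2l10 is not on the stored list.
Btg4: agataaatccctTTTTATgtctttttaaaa
Cnot7: tcttaaggtacaTTTTATatcaataaaaat
Orc6: tggttttttaaaTTTTATttcactaaatgt
Bub1b: tttcactgtgtaTTTTATaataaaatagtt
Dcp1a: gcaaatatatttTTTTAATaaaatttcaaa
Bcl2l10: cccttaatacatTTTTAATaacttcaaatt
Plat: agtatatttataTTTTAATctattttagtt
The element does not go with every increase: Ccnb1, Mos, Slbp and Obox5 have none of either form in this window of the transcript used. For the next 4, genes with neither form, the polyadenylation signal AATAAA is in capitals instead. The first of them was higher at MII and the others were lower or listed at 0. Some lower genes do carry the element, as the site of Ybx2, the last one printed, shows with the element in capitals. Cnot1, Psmb1 and Psma1 are further examples.
Ccnb1: ctttatgttgctAATAAAcatagttttcga
Cox7c: gaaaaaattgtaAATAAActaatgacataa
Psmb7: ttaaaataaataAATAAAaagacaaaaaac
Padi6: tgccatagagccAATAAAgcatggtattct
Ybx2: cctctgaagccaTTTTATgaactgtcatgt

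Across all genes with a 3' UTR of at least 100 bases, the share with the element was graded with the change. It was 39.1% of 1601 higher genes, 25.3% of 1828 genes within 2-fold and 11.7% of 3832 lower genes. The share was 21.2% of all compared genes with such a UTR and 18.2% of all 18464 symbols with one. Only the mRNA strand was searched, and overlapping matches were each counted.

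Other runs of A and T were graded less steeply. TTATTT, made of the same letters as TTTTAT, was in 20.5% of higher, 18.1% of within and 10.7% of lower genes. TTTATT was in 21.7%, 18.6% and 10.4%, and both can overlap the element by sharing its T run. The AU-rich pentamer ATTTA was in 29.6%, 25.8% and 20.0%, and the Pumilio motif TGTANATA in 6.31%, 5.69% and 4.91%. AATAAA was in 75.8%, 71.1% and 62.3%.

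Genes with more elements were higher at MII. The median change was -1.65 in 5723 genes with no element, 0.35 in 1287 with 1, 1.03 in 222 with 2 and 1.57 in 29 with 3 or more. The share past 2-fold higher went from 17.0% through 38.2% and 51.4% to 69.0% over the same groups.

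**Figure D3:**
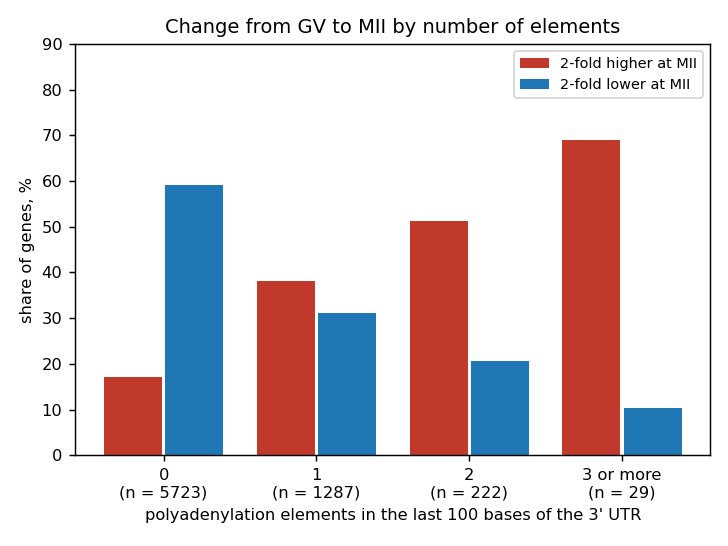
Bars give the share of genes, in percent, that were 2-fold higher (red) or lower (blue) at MII, for genes grouped on the x axis by the number of TTTTAT or TTTTAAT elements in the last 100 bases of the 3' UTR, with the number of genes under each group. The higher share goes from 17.0% with no element to 69.0% with 3 or more, a group of 29 genes.

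Base composition and length moved with the change as well. The median A+T content of the window was 69% in higher, 67% in within and 62% in lower genes. In the 17 genes with the element in windows under 50% A+T the median change was -0.33, and -2.95 in the 530 without it. At 50 to 60% A+T the median was -0.51 with the element and -2.36 without it. At 60 to 70% it was 0.15 and -1.50, and at 70% or more 0.73 and -0.51. Within each of these bands genes with the element were higher than those without. The median transcript was 3192 bases in higher and 2629 in lower genes, and the median change went from -1.96 in the shortest of 5 equal groups of transcripts to -0.43 in the longest. The part of length in the results was not tested beyond the length correction.

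For some other lists the counts were as follows, beside 21.2% of all compared genes with a UTR of at least 100 bases. Of the p53 and apoptosis genes 7 of 13 had the element and of the oocyte transcription factors 6 of 14. Of the ribosomal protein genes 6 of 33 had it, of the respiratory subunits 5 of 59, of the proteasome subunits 3 of 30 and of the translation factors 2 of 38. Further lists with low medians had it in 12 of 40 maternal effect genes, 7 of 30 ribosome biogenesis factors and 10 of 61 mitochondrial ribosomal proteins.

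Cytosolic ribosomal protein genes were among the lists with the lowest medians. Of 75 compared, 68 were lower, 1 was higher and 6 were within 2-fold, with a median of -3.30. Of all genes compared 53.9% were lower and 21.7% higher (median -1.29). The list went from 5.55% to 1.30% of summed FPKM. Rps15 was at 633 FPKM at GV and 0.504 at MII, and Rps4x at 358 and 0.125. Rplp2, of the ribosomal stalk, was at 706 and 150, and its partner Rplp1 at 887 and 355. Rpl34, the member past 2-fold in the other direction, was at 42.1 and 108. It overlaps the pseudogene symbol Rpl34-ps1, at 312 and 0.00255 FPKM, and reads of ribosomal genes and their processed copies can be split between loci, so single members are uncertain.

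Genes of the nuclear-encoded respiratory chain were lower in 51 of 77 cases, with 1 higher and a median of -1.95. Among all genes compared the shares were 53.9% lower and 21.7% higher, with a median of -1.29. Uqcrq (436 FPKM at GV) and Cox7c (405), small subunits of complexes III and IV, and Cox17 (280), a copper chaperone for complex IV, were listed at 0 at MII. In the library labelled Erk-/- at MII they had 114, 167 and 99.2 FPKM. Cox8a was the subunit that was higher, at 186 and 597. Mitochondrial ribosomal proteins had 49 of 68 genes lower and 5 higher (median -2.73). Mrpl3, among the 5, was listed at 0 at GV and had 78.4 FPKM at MII.

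Proteasome subunits were lower in 27 of 37 cases and higher in 3, with a median of -3.04. The lists of this paragraph stand beside 53.9% lower and 21.7% higher among all genes compared (median -1.29). Psmb7 was at 240 FPKM at GV and listed at 0 at MII, and Psmb1 was at 240 and 36.1. Psmd3, of the regulatory lid, was at 54.5 and 314. Translation factors were lower in 30 of 44 and higher in 5 (median -2.55), and ribosome biogenesis factors lower in 24 of 35 and higher in 2 (median -2.45). The initiation factor genes Eif4e (96.9 and 57.6) and Eif4a1 (401 and 546) were within 2-fold, and Eif3g was at 162 and 0.197. Eef1e1 was listed at 0 at GV and at 68.6 at MII. Spliceosome genes were not shifted this way, with 14 of 47 lower, 14 higher and a median of 0.00 that moved to 0.67 after quantile normalization.

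**Figure D4:**
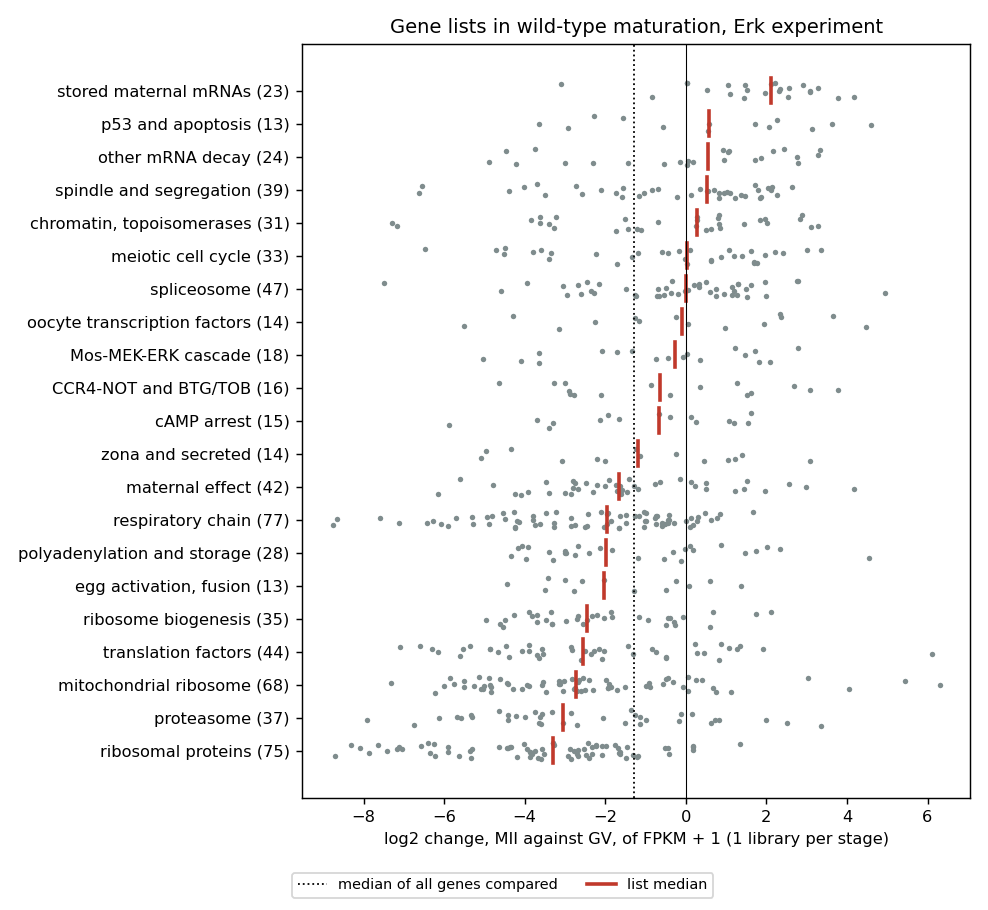
Each grey point is a gene of the list named on the y axis (number compared in brackets), the x axis is its log2 change, MII against GV, of FPKM + 1, and red bars are list medians. Ribosomal, proteasome and mitochondrial ribosomal genes have medians of -3.30, -3.04 and -2.73, left of the dotted median of all genes at -1.29, and stored maternal mRNAs have the highest median, 2.11.

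The zona pellucida mRNAs, which encode the egg coat laid down during growth, were far lower at MII. Zp3, which forms filaments with Zp2, was at 4768 FPKM at GV (interval 4718 to 4817) and 151 at MII (142 to 160), 31.4-fold lower. Zp2 was at 2687 and 78.7 and Zp1, which crosslinks the filaments, at 1238 and 60.0. The secreted list as a whole was split, with 8 of 14 lower and 4 higher, among them Plat, Oosp1 and Omt2a (560 and 1480). Its median was -1.19, beside -1.29 for all genes compared, of which 53.9% were lower and 21.7% higher.

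Maternal effect genes, needed in the egg for development of the embryo, were lower in 28 of 42 cases and higher in 7 (median -1.66). Of all genes compared 53.9% were lower and 21.7% higher, with a median of -1.29. Padi6, needed for the cytoplasmic lattices, was at 4264 FPKM and 58.7, 71.5-fold lower. The subcortical maternal complex members Tle6 (2245 and 203), Nlrp5 (1172 and 145) and Ooep (1242 and 171) were lower together. Npm2, an oocyte histone chaperone, was at 1372 and 27.0. Dppa3, which protects maternal DNA methylation, was at 1265 and 1391, and Tet3 and the Polycomb gene Bmi1 (28.6 and 234) were the largest of the increases. In the libraries labelled Erk-/-, Tle6 was at 1694 FPKM at GV and 1584 at MII, Nlrp5 at 612 and 604, and Ooep at 1143 and 1370, all within 2-fold. Padi6 (2641 and 727) and Npm2 (1209 and 268) were past 2-fold lower there. Of the 42 genes 10 were 2-fold lower and 7 higher in those libraries.

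Factors that degrade mRNA were mixed. Of 16 CCR4-NOT subunits and BTG/TOB adaptors 7 were lower and 6 higher (median -0.64), where 53.9% of all genes compared were lower and 21.7% higher. Cnot7, Cnot6l and Btg4 were higher, and the scaffold gene Cnot1 was lower, at 34.8 and 2.68 FPKM. Of 24 other decay genes 10 were higher and 7 lower (median 0.55). The Pan2-Pan3 deadenylase genes were both higher, Pan2 at 31.7 and 177 and Pan3 at 6.35 and 48.8. Upf1, the helicase of nonsense-mediated decay, was at 39.8 and 409. Parn, a poly(A)-specific ribonuclease, was at 38.5 and 7.04, and Exosc5 of the RNA exosome at 28.7 and listed at 0.

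Genes for storage and polyadenylation were lower in 16 of 28 cases and higher in 5 (median -1.99, and -0.90 after quantile normalization), near the 53.9% and 21.7% of all genes compared. Cpeb1, which binds the element printed above, was at 376 FPKM at GV and 21.6 at MII. Cpeb4, its relative, was listed at 0 at GV and at 22.4 at MII. Ybx2, the oocyte mRNA-packaging protein, was at 547 and 69.2, and the oocyte poly(A)-binding protein gene Pabpc1l at 208 and 10.6. Pabpn1l, a poly(A)-binding adaptor of the oocyte, was at 231 and 773, and Pabpn1 at 40.3 and 209.

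In the Mos, MEK and ERK cascade 7 of 18 genes were lower and 6 higher, with a median of -0.26 that became 0.58 after quantile normalization. As deposited, that median lies above the -1.29 of all genes compared, of which 53.9% were lower and 21.7% higher. Mapk3, the gene of ERK1, was at 333 FPKM and 25.7 in wild type, and at 52.3 and 34.3 in the libraries labelled Erk-/-. The MEK genes parted: Map2k1 was at 83.6 and 359 and Map2k2 at 31.9 and listed at 0. The adaptor gene Grb2 was at 27.8 and 0.687. Dusp1, a phosphatase of these kinases, was at 19.1 and 138.

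Cell cycle regulators were lower in 12 of 33 cases and higher in 12 (median 0.04), and spindle genes in 14 of 39 each (median 0.52, and -0.09 after the length correction). Both medians lie above the -1.29 of all genes compared, of which 53.9% were lower and 21.7% higher. Cdk1, the M-phase kinase, was at 90.3 FPKM and 0.0328, while its partner Ccnb1 was higher. The phosphatase gene Cdc25a was at 25.2 and listed at 0. Cdc27, of the anaphase-promoting complex, was at 10.1 and 112, and Plk4 at 11.2 and 96.0. Aurkc, the germline Aurora kinase, was at 137 and 669 and the kinetochore gene Ndc80 at 12.2 and 81.2, and Tacc3, a spindle pole protein gene, at 545 and 4.49.

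Chromatin genes were lower in 13 of 31 cases and higher in 8, with a median of 0.28 that became -0.28 after the length correction. Among all genes compared 53.9% were lower and 21.7% higher. Top1, a DNA topoisomerase, was at 24.9 FPKM and 104 and Top2a at 16 and 0.175. Eed, of Polycomb, was at 18.7 and 189, and the histone chaperone gene Chaf1a at 160 and 0.0281. Among oocyte transcription factors, 6 of 14 were lower and 5 higher (median -0.10, and 0.68 after quantile normalization). Nobox was at 335 and 6.40, and Gtf2a1, a general factor, at 5.11 and 136. Of 13 genes on the p53 and apoptosis list, 6 were higher and 4 lower (median 0.57). Trp53 was at 1.36 and 55.8, and its inhibitor Mdm2 at 26.2 and 131.

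Genes of egg activation and gamete fusion were lower in 8 of 13 cases and higher in 1, with a median of -2.03 (-0.70 after quantile normalization), where 53.9% of all genes compared were lower. Folr4, the symbol in the files for the sperm receptor gene, was at 334 FPKM and 30.2, and its tetraspanin partner gene Cd9 at 82.3 and 9.34. Itpr1, the calcium release channel gene, was within 2-fold at 33.9 and 23.7. For prophase arrest through cAMP, 7 of 15 genes were lower and 4 higher (median -0.67). The receptor gene Gpr3 was at 45.4 and 11.1, Gnas, the stimulatory G protein, at 443 and 6.49, and Pde3a, the phosphodiesterase that ends arrest, at 51.7 and 61.2.

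The largest single changes rest in part on values listed at 0. Of the 12 largest decreases, 5 were listed at 0 at MII, and of the 12 largest increases, 10 were listed at 0 at GV. Bola3 led the increases with 104 FPKM at MII, and had 19.1 FPKM at GV in the library labelled Erk-/-. No fold is given for these genes.

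The oocytes labelled Erk-/- went through the same stages, and each of their libraries was measured apart from the wild-type ones. Of the 4273 genes lower in wild type, 2334 were also 2-fold lower there (54.6%) and 347 higher, beside 33.7% lower among all 7923 genes. Of the 1716 genes higher in wild type, 1003 were also higher (58.4%), beside 22.9% of all, and 92 were lower. The changes were smaller there: the median was -2.98 in wild type and -1.18 in Erk-/- for the lower genes, and 1.97 and 1.22 for the higher genes. The genes were chosen by the wild-type values, so the smaller size in the other pair is a description. Of the stored maternal mRNAs 17 of 23 were higher in Erk-/- and 1 was lower, and Btg4 was at 250 FPKM at GV and 1565 at MII. Across the 7923 genes the changes of the 2 pairs had Pearson r = 0.61.

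The wild-type libraries of the Btg4 experiment were compared by limma, in a fit that also holds its Btg4-/- oocytes and its zygotes and 2-cell embryos of both genotypes, with Benjamini-Hochberg adjustment over 12311 genes. This is another set of oocyte pools. Among the 7815 genes compared in both, 32.8% passed as lower and 33.3% as higher at MII there. Of 4196 genes lower in the Erk experiment and tested there, 1630 passed as lower (38.8%) and 1132 as higher (27.0%). Of 1695 genes higher in the Erk experiment, 503 passed as higher (29.7%) and 553 as lower (32.6%). As deposited, these shares lie near the shares of all genes compared. Rescaling both experiments changed the genes in the second set and the limma calls, and with them this order. After median-of-ratios scaling, of 1753 genes, 587 passed as higher (33.5%) and 546 as lower (31.1%). After quantile normalization, of 2490 genes, 1018 passed as higher (40.9%) and 601 as lower (24.1%). As deposited, r between the changes was 0.20 over these genes, whose values are not independent of each other.

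Ribosomal protein genes moved alike in both experiments. Their median was -3.30 in the Erk experiment and -3.21 in the Btg4 experiment, where 66 of 75 passed as lower and 4 as higher. Rps15 had 1301 and 1306 FPKM in the 2 GV libraries there and 11.8 and 12.5 in the MII libraries. Respiratory subunits (median -2.30, 53 of 77 lower, 11 higher) and mitochondrial ribosomal proteins (median -2.01, 52 of 68 lower, 5 higher) were lower there too. Proteasome subunits (median -1.48, 24 of 37 lower, 8 higher) and translation factors (median -0.51, 23 of 44 lower, 15 higher) had medians below 0 there as well. Some other lists low in the Erk experiment had medians above 0 there: ribosome biogenesis factors 0.65 (19 of 35 higher, 6 lower), storage and polyadenylation genes 0.56 (13 of 28 higher, 6 lower) and egg activation genes 0.85 (7 of 13 higher, 4 lower).

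Most stored maternal mRNAs were lower there. In the Btg4 experiment their median was -0.94, with 13 of 23 lower and 7 higher. Btg4 had 1450 and 1673 FPKM in the GV libraries there and 415 and 406 at MII (log2 change -1.92, SE 0.116, limma adjusted p = 2.88e-08). Plat had 848 and 843 and then 27.5 and 27.7, and Bcl2l10, which is outside the list, had 4999 and 4735 and then 535 and 598. For these 3 genes GV was the higher stage in the Btg4 experiment and MII in the Erk experiment, and the 2 GV libraries of the former did not overlap its 2 MII libraries. Tet3 was higher at MII in both, with 19.1 and 14.2 FPKM at GV and 68.6 and 70.2 at MII in the Btg4 experiment.

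Maternal effect genes had medians of opposite sign. The median was -1.66 in the Erk experiment and 1.28 in the Btg4 experiment, where 29 of 42 passed as higher and 8 as lower. Nlrp5 had 3.38 and 1.36 FPKM in the GV libraries there and 40.5 and 39.2 at MII, far below the 1172 of the Erk experiment's GV library. Hsp90aa1, a cytosolic chaperone gene, was at 1067 and 14.5 FPKM in the Erk experiment and went from 46.3 and 56.5 to 1265 and 1324 in the Btg4 experiment. Gnas, with 7.09 and 5.62 FPKM in the GV libraries there and 519 and 748 at MII, was reversed in the same way. The polyadenylation element was not graded in the same way there: it was in 19.9% of genes that passed as higher, 21.1% of those that did not pass and 22.6% of those that passed as lower.

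**Figure D5:**
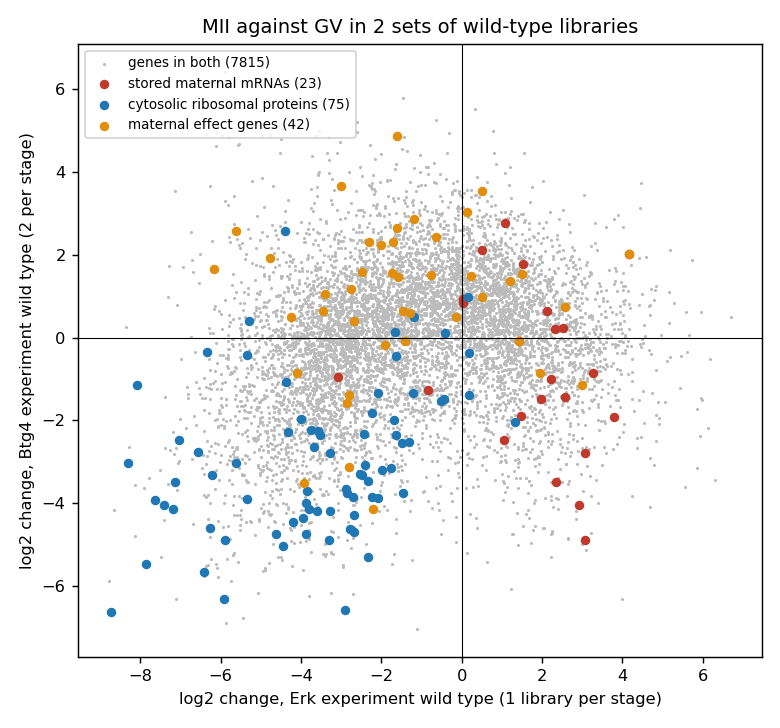
Each point is 1 of the 7815 genes compared in both sets of wild-type libraries, with the log2 change, MII against GV, in the Erk experiment on the x axis (1 library per stage) and in the Btg4 experiment on the y axis (2 per stage). Ribosomal protein genes are mostly at the lower left, while many stored maternal mRNAs are at the lower right and many maternal effect genes at the upper left, and r over all points is 0.20.

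The libraries of the 2 experiments differ in more than stage. Over the 7923 genes the GV library of the Erk experiment had r = 0.60 and 0.59 on log2(FPKM + 1) with the GV libraries of the Btg4 experiment and 0.61 and 0.59 with its MII libraries. The MII library had 0.44 and 0.44 with the former and 0.60 and 0.60 with the latter. Rn45s, the precursor of ribosomal RNA, had 118 and 641 FPKM at GV and MII here, against 10231 and 10765 at GV and 20984 and 16014 at MII in the Btg4 experiment. Estimated depth was 3030000 to 5090000 fragments in those 4 libraries. The part of these differences in the opposite changes was not tested. Libraries are called by their labels throughout. Whether stage labels were exchanged in either experiment, and whether mRNA was purified alike in both, was not tested, and every direction given here rests on the labels.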

How the data were processed

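RNA-seq of pooled mouse oocytes was analysed from the gene-level FPKM values that the authors deposited. Per the submitters' processing notes they used CASAVA 1.8, TopHat, Cufflinks and the mm9 genome. Versions of the last 2 tools, and the annotation they used, were not given in the sources used here. Samples were grouped by their titles. The members and gene lists were chosen with earlier results of these data known.

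Loci sharing a symbol were summed (260 symbols), and changes were taken on log2(FPKM + 1) between 1 library per stage. The 319 loci without an OK status in each library were kept. For 14.1% (GV) and 14.8% (MII) of loci at 5 FPKM or more the deposited FPKM lay outside its own interval, so interval widths were centred on the FPKM. Depth was estimated from those widths, taken as 4 SDs of counting error alone, over genes of 20 to 500 fragments.

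The 16 libraries of the Btg4 experiment (wild type and Btg4-/-, each at GV, MII, zygote and 2-cell, 2 libraries per group) share 1 estimate of the spread and were fitted with limma 3.58.1 in R 4.3.3 (group means, 8 residual degrees of freedom, genes with a group mean of 1 FPKM or more, two-sided, threshold 0.05), tested first on simulated data. The labels do not tie its replicates to separate animals, so the spread behind these p-values may be technical.

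GENCODE M21 transcripts (GRCm38) were matched by symbol alone, for 7873 of 7923 genes, and no coordinates were mixed. Genes named were drawn from these: the 12 largest rises and falls with an OK status, the 5 most abundant per library, the first 3 members and the 2 largest falls and rises of each list, Btg4 and Mapk3, and the 5 genes with the largest opposite changes in the 2 experiments. Members of the stored list were named whatever their change, and not every gene these rules pick is named or reported here. Alternatives were other pseudocounts, filters, scalings, locus and status rules, leaving out replicates and a replicate block, and, added after seeing the data, leaving out genes listed at 0 and a lowess correction (span 0.3) for transcript length.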

Additional observations from a re-analysis of the deposited data

Results flagged for a closer look

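Some changes in wild-type oocytes of the Erk experiment run opposite to those in wild-type oocytes of the Btg4 experiment, each past 2-fold on the log2(FPKM + 1) scale, with both GV libraries of the Btg4 experiment on one side of both MII libraries. The difference itself was not tested, since the Erk experiment has 1 library per stage. Of 227 genes drawn for naming, 35 are named in the text and meet this, and drawn genes left unnamed are not counted. Ssb, Ywhab, Hsp90aa1, Gnas and Larp7 were drawn for their large opposite changes, so they meet it by construction. Genes were also counted when past 2-fold in both experiments and past limma's threshold in the Btg4 experiment. By that rule 842 were lower in the Erk experiment and higher in the Btg4 experiment, and 433 the reverse. By the same rule 1384 genes were lower in both and 368 higher in both.

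Log2 changes of mRNAs higher at MII in the Erk experiment and lower in the Btg4 experiment were 3.78 for Btg4, 3.08 for Cnot7, 3.07 for Plat, 2.92 for Orc6, 2.56 for Il7, 2.34 for Obox5, 2.22 for Ccnb1, 1.96 for Wee2, 1.46 for Mos and 1.05 for Oosp1, all on the list of stored maternal mRNAs. Outside that list they were 3.23 for AU022751, 3.13 for Bcl2l10, 2.99 for Bmi1, 2.50 for Psmd3, 2.45 for Pan2, 2.27 for Mdm2, 1.74 for Pabpn1l, 1.40 for Omt2a and 1.33 for Rpl34. Mrpl3 (78.4 FPKM at MII) and Eef1e1 (68.6) are listed at 0 at GV.

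Log2 changes of mRNAs lower at MII in the Erk experiment and higher in the Btg4 experiment were -7.29 for Chaf1a, -6.37 for Ssb, -6.16 for Padi6, -6.12 for Ywhab, -6.11 for Hsp90aa1, -5.89 for Gnas, -5.61 for Npm2, -3.85 for Ubb, -3.64 for Mapk3, -3 for Nlrp5, -2.02 for Bmp15 and -1.47 for Ldhb. Larp7 (61.6 FPKM at GV) and Map2k2 (31.9) are listed at 0 at MII.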

How the results depend on the processing

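Changes in wild-type oocytes of the Erk experiment rest on 1 library per stage. A filter at 20 FPKM left 2381 genes lower, a 4-fold threshold left 835 higher, and 1 list (stored maternal mRNAs) had a median at least 2-fold higher as deposited, 4 lists after quantile normalization and 2 with genes listed at 0 left out, a setting added after seeing the data. Quantile normalization also changed the overlap with the Btg4 experiment, to 730 genes lower here and higher there and 1018 higher in both, and turned the granulosa marker Nr5a2 from -1.27 to 0.27. The cause was not tested. The other counts of genes and lists stayed within 1.5 times their value under the settings run. Leaving out 1 wild-type library of the Btg4 experiment at a time gave 3038 to 3104 genes lower and 2608 to 2912 higher there, with a lone library assumed to vary like the other groups.

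The 2 wild-type GV and MII libraries of the Btg4 experiment share replicate numbers. Deviations of same-numbered libraries from their stage means had r = 0.067, which cannot show whether they were collected or handled together. With the replicate number as a block 3545 genes passed as lower and 3141 as higher, beside 3506 and 3099 without it. The shared counts with the block were 1644 and 1157 for genes lower in the Erk experiment and 518 and 561 for genes higher. Wild type of the Erk experiment has no replicate to pair.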
